A study of Mus musculus with 12 samples.

Results

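The genes of the colony-stimulating factor (CSF) receptors and their ligands were read in microglia sorted from mouse brain. The set holds 8 gene symbols, chosen by name: the receptor genes Csf1r, Csf2ra, Csf2rb, Csf2rb2, Csf3r and Flt3, and the ligand genes Csf1 and Il34. All 8 are among the 24328 gene symbols of the count table, and 7 had enough counts to be tested, Il34 being left out. The libraries came from 12 BALB/c mice labelled wild-type (WT), 4 in each group, and the microglia were sorted by FACS. Control mice were untransplanted. The other mice were lethally irradiated and given 5000000 bone marrow cells with 300000 T cells, either syngeneic or allogeneic, and were killed by perfusion on day 14, given in the labels as the time when graft-versus-host disease (GvHD) peaks. Both transplanted groups therefore share irradiation, marrow and T cells, and the control mice had none of these. The donor strain is not given in the sources used here.

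Microglia are macrophages that settle in the brain before birth and depend on CSF1R, a receptor tyrosine kinase, for survival and renewal. CSF1R has a pair of ligands, CSF1 and interleukin 34 (IL-34), and in the brain IL-34 comes mainly from neurons. GM-CSF, made by activated T cells among others, acts through a specific alpha chain (Csf2ra) and the common beta chain (Csf2rb), which the receptors for interleukin 3 and interleukin 5 share. The mouse has a further beta chain, encoded by Csf2rb2, that serves interleukin 3 alone. Csf3r encodes the receptor for G-CSF, best known in neutrophils, and Flt3 a receptor tyrosine kinase of blood progenitors and dendritic cells.

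Promoter sequence was at hand for 5 of the 8 genes, in the RefSeq table of build GRCm38.p6. They are shown because Csf3r and Flt3 stood below control in both transplanted groups, while Csf2ra, Csf2rb2 and Csf1 were highest in the allogeneic group. Each line is the 250 bases before the annotated start, read 5′ to 3′ on the gene's own strand, and capitals mark the letters GAGGAA, the core bound by PU.1-type ETS factors, or TTCNNNGAA, the spacing bound by STAT factors, on either strand.
Csf3r: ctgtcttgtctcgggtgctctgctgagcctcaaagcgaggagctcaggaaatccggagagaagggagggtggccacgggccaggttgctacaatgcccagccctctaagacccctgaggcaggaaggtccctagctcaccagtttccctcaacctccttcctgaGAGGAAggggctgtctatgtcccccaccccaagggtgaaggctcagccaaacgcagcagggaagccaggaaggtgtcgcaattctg
Flt3: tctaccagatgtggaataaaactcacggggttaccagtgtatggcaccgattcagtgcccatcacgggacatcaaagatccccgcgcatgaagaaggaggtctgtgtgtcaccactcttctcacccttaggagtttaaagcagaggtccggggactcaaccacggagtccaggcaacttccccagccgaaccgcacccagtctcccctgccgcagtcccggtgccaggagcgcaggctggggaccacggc
Csf2ra: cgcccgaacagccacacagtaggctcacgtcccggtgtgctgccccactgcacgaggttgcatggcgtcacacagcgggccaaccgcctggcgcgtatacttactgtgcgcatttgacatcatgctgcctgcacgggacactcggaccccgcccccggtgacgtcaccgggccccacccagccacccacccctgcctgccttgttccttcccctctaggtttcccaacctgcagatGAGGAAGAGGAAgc
Csf2rb2: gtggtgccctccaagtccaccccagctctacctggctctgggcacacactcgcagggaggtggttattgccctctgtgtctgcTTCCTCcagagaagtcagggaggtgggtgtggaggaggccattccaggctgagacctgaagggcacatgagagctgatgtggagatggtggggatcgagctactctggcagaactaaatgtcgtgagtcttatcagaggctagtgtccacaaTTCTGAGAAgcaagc
Csf1: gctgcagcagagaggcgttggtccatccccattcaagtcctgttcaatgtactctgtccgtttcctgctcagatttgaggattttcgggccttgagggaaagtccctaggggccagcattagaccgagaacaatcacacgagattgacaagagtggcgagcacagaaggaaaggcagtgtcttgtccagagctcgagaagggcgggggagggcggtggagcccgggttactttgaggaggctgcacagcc
The stretches lie at chr4:126024409-126024658 (plus strand, Csf3r), chr5:147400490-147400739 (minus strand, Flt3), chr19:61228419-61228668 (minus strand, Csf2ra), chr15:78305722-78305971 (minus strand, Csf2rb2) and chr3:107760470-107760719 (minus strand, Csf1). GAGGAA occurred in 23.3% and TTCNNNGAA in 7.02% of 32851 RefSeq stretches of the same length. The Csf2ra stretch held 2 GAGGAA matches next to each other, which begin 14 and 8 bases before the start. In Csf3r 1 GAGGAA match began 86 bases before the start. In Csf2rb2 a GAGGAA match on the other strand began 167 bases before the start and a TTCNNNGAA match 15 bases before it. Neither set of letters was found in the Flt3 and Csf1 stretches. The AP-1 letters TGANTCA (6.75% of all stretches), the RUNX letters TGTGGT (14%) and TATAAA (12.4%) were found in none of these 5 stretches. These matches describe letters and are not measured binding sites.

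Library totals ran from 32652208 to 46126118 counts over the 12 libraries, and a total of 0 counts over a group allows up to 0.0179 CPM (counts scaled to a common library size) in the control and syngeneic and 0.0217 CPM in the allogeneic group, for counting error only. The 12 defining microglia markers summed to 41461 to 48422 CPM in control, 45817 to 49602 CPM in syngeneic and 34273 to 35531 CPM in allogeneic libraries. Monocyte markers (11 genes) summed to 20.01 to 23.4 CPM in control, 46.3 to 78.5 CPM in syngeneic and 321 to 485 CPM in allogeneic libraries. Choroid plexus markers (8 genes) summed to 21.2 to 143 CPM in control, 1418 to 2465 CPM in syngeneic and 415 to 786 CPM in allogeneic libraries. In the mixed RNA of a sort, fewer cells of a type and less RNA per cell cannot be told apart. "Rose" and "fell" below refer to genes past an adjusted p of 0.05 in edgeR's quasi-likelihood test over 12695 genes, fold changes are on the log2 scale with their SE, and levels are means ± SD over 4 libraries in CPM with TMM factors.

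Set against control, the syngeneic group had lower transcript levels of 5 of the 7 tested genes, Csf1r, Csf3r, Flt3, Csf2rb and Csf2rb2, and higher levels of none. In that comparison 52.1% of all tested genes were called, 26.4% as higher and 25.6% as lower. In allogeneic against syngeneic mice 5 genes rose, Csf1, Csf2ra, Csf2rb, Csf2rb2 and Flt3, and 1 fell, Csf1r; of all tested genes 16.5% were called there, 10.1% as higher and 6.38% as lower. In allogeneic against control mice 7 of 7 were called, 4 higher (Csf1, Csf2ra, Csf2rb, Csf2rb2) and 3 lower (Csf1r, Csf3r, Flt3), where 57.3% of all tested genes were called, 28.2% as higher and 29.1% as lower. The median log2 fold change of the 7 genes was -0.64, 1.02 and 0.43 in these comparisons, beside -0.03, -0.015 and -0.07 over all tested genes. The groups did not overlap in 5 (all lower), 6 (5 higher, 1 lower) and 7 (4 higher, 3 lower) of the 7 genes. Among all tested genes 50% did not overlap in the syngeneic and control groups (24.6% higher, 25.5% lower), 20.7% in the allogeneic and syngeneic groups (12.6% higher, 8.1% lower) and 53.8% in the allogeneic and control groups (26.2% higher, 27.7% lower). Both comparisons with control use the same 4 control libraries.

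**Figure D1:**
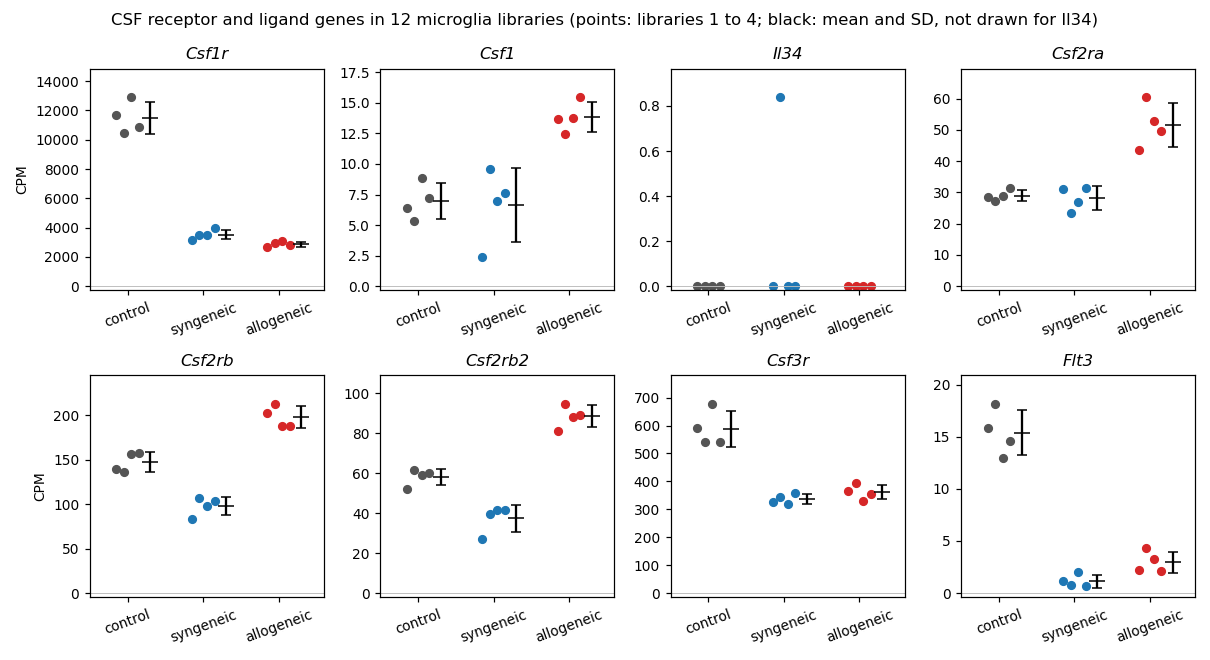
Level of each of the 8 genes in CPM (vertical axes, linear from 0, 1 scale per gene) in the 4 control (grey), 4 syngeneic (blue) and 4 allogeneic (red) libraries, with the group mean and SD in black (not drawn for Il34). Csf1r, Csf3r and Flt3 are highest in control, Csf1, Csf2ra, Csf2rb and Csf2rb2 in allogeneic libraries, and Il34 is above 0 in 1 library.

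The scaling of the libraries bears on several of these calls. With library totals in place of TMM factors, the median over all genes of the log2 fold change moved to -0.20 for syngeneic against control, -0.22 for allogeneic against syngeneic and -0.44 for allogeneic against control. The calls then split into 2723 higher and 3968 lower in place of 3357 and 3253, 844 and 2108 in place of 1288 and 810, and 2453 and 5259 in place of 3576 and 3697. Longest transcripts of the 8 genes have a GC content of 51.2% to 57.8%, all above the median of 49.6% over tested genes. A per-library offset for GC content and transcript length raised the values of all 7 genes against control. For the 7 genes, values with either scaling are given beside a result where the call or direction changed, or where the fold moved over 1.5 times.

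Csf1r was among the most abundant transcripts of control microglia, ranking at 6 of the 24328 symbols by mean CPM, and at 21 in syngeneic and 38 in allogeneic libraries. The 4 control libraries held 11679, 10473, 12925 and 10885 CPM of Csf1r. The syngeneic libraries held 3127, 3512, 3510 and 3950 CPM, and the allogeneic ones 2682, 2917, 3089 and 2829 CPM. Every control library lay far above every transplanted one, and the highest allogeneic value was just below the lowest syngeneic value. Csf1r fell 3.26-fold in syngeneic against control mice (log2 fold change -1.71 ± 0.08, edgeR adjusted p = 6.2e-12) and 3.99-fold in allogeneic against control mice (-1.997 ± 0.077, edgeR adjusted p = 1.66e-13). The step from syngeneic to allogeneic was small, a fall of 1.22-fold (-0.29 ± 0.07, edgeR adjusted p = 0.0093). With the GC and length offset Csf1r still fell in each comparison, by less: the log2 fold changes were -1.17 and -1.37 against control and -0.20 for allogeneic against syngeneic mice. Beside Csf1r, P2ry12, a purine receptor of resting microglia, averaged 12080.5, 17287 and 9081 CPM in control, syngeneic and allogeneic libraries, and Tmem119, a microglial surface protein, 3971, 1342 and 1139 CPM.

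Over the 12 libraries the genes whose log2 CPM followed Csf1r most closely were the pseudogene Pisd-ps2 (Pearson r = 0.995), Scamp2, a secretory carrier membrane protein (0.995), Por, the reductase that feeds electrons to cytochromes P450 (0.994), Fmnl3, a formin of the actin cytoskeleton (0.993), and Cdipt, which makes phosphatidylinositol (0.993). Mean levels of Por were 103, 18.6 and 14.9 CPM in control, syngeneic and allogeneic libraries, and those of Fmnl3 165, 58.9 and 45.4 CPM. These r values are a description, since all 12 points share the group structure and library composition. Counts of Pisd-ps2 are uncertain, as reads of a pseudogene can be split with its parent gene.

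The ligand gene Csf1 stood at low levels throughout. It measured 6.39, 5.34, 8.86 and 7.21 CPM in control, 2.36, 9.57, 6.98 and 7.66 CPM in syngeneic, and 13.7, 12.4, 13.8 and 15.5 CPM in allogeneic libraries. All 4 allogeneic libraries lay above all 8 others, and the control and syngeneic libraries overlapped, with syngeneic 1 the lowest of the 12. Csf1 rose 2.09-fold in allogeneic against syngeneic mice (log2 fold change 1.06 ± 0.33, edgeR adjusted p = 0.0322) and 1.99-fold against control (0.99 ± 0.33, edgeR adjusted p = 0.0148). For syngeneic against control mice the value was -0.07 ± 0.33 (edgeR adjusted p = 0.883), or 0.455 with the GC and length offset (edgeR adjusted p = 0.261). The first of these calls rests on few libraries: it was lost, at adjusted p values of 0.0523 to 0.0722, on leaving out syngeneic 1, 3 or 4 or allogeneic 1, 3 or 4, and with library totals (0.0709). With library totals the call against control was lost too (0.62, edgeR adjusted p = 0.112), while the GC and length offset enlarged it to 1.61.

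Counts of Csf1 were also set against those of its receptor. Per 1000 counts of Csf1r the control libraries held 0.51 to 0.685 counts of Csf1, the syngeneic libraries 0.756 to 2.72 and the allogeneic libraries 4.27 to 5.47. The groups did not overlap in this ratio, in which library scaling cancels. In syngeneic against control mice only Csf1r was called, and Csf1 was not (edgeR adjusted p = 0.883).

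Il34, the other ligand gene, was at 0 counts in 11 libraries and at 39 counts (0.84 CPM) in syngeneic 2. Neuronal markers (10 genes) summed to 16.4 CPM in syngeneic 2, the highest of the 12 libraries, against 8.63 to 9.91 CPM in the other syngeneic, 7.62 to 11.8 CPM in allogeneic and 1.62 to 3.10 CPM in control libraries. Their part in the Il34 counts was not tested.

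Csf2ra, the GM-CSF-specific alpha chain, was highest in the allogeneic group. It measured 28.6, 27.3, 28.7 and 31.3 CPM in control, 31.0, 23.4, 27.0 and 31.3 CPM in syngeneic, and 43.6, 60.5, 52.9 and 49.5 CPM in allogeneic libraries. No allogeneic library overlapped the others, and control and syngeneic libraries lay in the same range. Csf2ra rose 1.83-fold in allogeneic against syngeneic mice (log2 fold change 0.87 ± 0.14, edgeR adjusted p = 1.35e-04) and 1.78-fold against control (0.83 ± 0.14, edgeR adjusted p = 4.59e-05). For syngeneic against control the difference was -0.04 ± 0.14 (edgeR adjusted p = 0.828), and with the GC and length offset Csf2ra was called higher there instead (0.41, edgeR adjusted p = 0.0175). Against control the same offset gave 1.22 in allogeneic mice.

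The beta chains Csf2rb and Csf2rb2 took another course, lowest in syngeneic and highest in allogeneic libraries. Csf2rb measured 139, 137, 156 and 157 CPM in control, 83.6, 107, 97.3 and 104 CPM in syngeneic, and 203, 213, 188 and 188 CPM in allogeneic libraries. For Csf2rb2 the values were 52.0, 61.5, 59.0 and 59.9 CPM in control, 27.0, 39.6, 41.3 and 41.3 CPM in syngeneic, and 81.3, 94.6, 88.3 and 89.2 CPM in allogeneic libraries. The 3 groups did not overlap for either gene. In allogeneic against syngeneic mice Csf2rb rose 2.02-fold (log2 fold change 1.02 ± 0.09, edgeR adjusted p = 1.22e-07) and Csf2rb2 2.37-fold (1.25 ± 0.13, edgeR adjusted p = 9.01e-07). These 2 rises kept their calls with library totals (0.81 and 1.04) and with the GC and length offset (1.12 and 1.32).

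The place of control between the other groups was less firm. In syngeneic against control mice Csf2rb fell (-0.59 ± 0.09, edgeR adjusted p = 2.43e-05), as did Csf2rb2 (-0.64 ± 0.13, edgeR adjusted p = 3.75e-04). With the GC and length offset neither fall was called (-0.09 and -0.18, edgeR adjusted p = 0.379 and 0.236). In allogeneic against control mice Csf2rb rose 1.34-fold (0.43 ± 0.09, edgeR adjusted p = 5.31e-04) and Csf2rb2 1.52-fold (0.61 ± 0.13, edgeR adjusted p = 5.20e-04). With library totals these were not called (0.06 and 0.23, edgeR adjusted p = 0.631 and 0.138), and with the offset they were 1.03 and 1.14. Of 8 tested monocyte markers 4 rose and 0 fell in allogeneic against syngeneic mice, 6 rose and 1 fell in allogeneic against control mice, and 5 rose and 0 fell in syngeneic against control mice, where Csf2rb and Csf2rb2 were lower. The 4 that rose in allogeneic against syngeneic mice were Plac8, Ms4a4c, Fn1 and Ms4a7. Of these Ms4a4c averaged 7.63, 30.1 and 229 CPM in control, syngeneic and allogeneic libraries, and Plac8 1.39, 11.9 and 77.9 CPM. Ly6c2, which defines inflammatory monocytes, averaged 0.04, 0.12 and 1.60 CPM. It was not called in allogeneic against syngeneic mice (edgeR adjusted p = 0.124). Ccr2, their chemokine receptor, averaged 9.49, 8.01 and 3.997 CPM. Endothelial markers (10 genes) summed to 82.5 to 114 CPM in control, 55.1 to 84.9 CPM in syngeneic and 286 to 471 CPM in allogeneic libraries, the same order of means as for both beta chains, with 1, 0 and 2 of the markers at 0 in the group. Of 7 tested endothelial markers 2 rose and 0 fell in allogeneic against syngeneic mice, 3 rose and 3 fell in syngeneic against control mice and 2 rose and 2 fell in allogeneic against control mice. Their median log2 fold changes were 0.35, -0.05 and 1.09, so the summed CPM does not stand for the list as a whole. Among all tested genes 10.1% rose and 6.38% fell, 26.4% rose and 25.6% fell, and 28.2% rose and 29.1% fell in these comparisons. The part of either cell type in the CSF receptor values was not tested.

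Csf2rb and Csf2rb2 are neighbours and near-identical copies, and how shared reads were counted is not given in the sources used here, so the split between them is uncertain. Csf2rb2 held 27.3% to 31% of their summed counts in control, 24.4% to 29.8% in syngeneic and 28.6% to 32.2% in allogeneic libraries. Counted as 1 feature, the pair rose by 1.08 ± 0.09 in allogeneic against syngeneic mice (edgeR adjusted p = 3.69e-08), fell by 0.60 in syngeneic against control and rose by 0.48 ± 0.09 in allogeneic against control. Across the 12 libraries the gene most like Csf2rb in log2 CPM was Csf2rb2 (r = 0.973), followed by H2-M3, a non-classical MHC class I gene (0.935), and Icam1, an adhesion molecule (0.934). Next to Csf2rb2, after Csf2rb, came Cd22, an inhibitory sialic acid receptor (0.959), and Rab20 (0.94), a small GTPase. For Csf2ra the closest was Fcgrt (0.967), the neonatal Fc receptor.

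**Figure D2:**
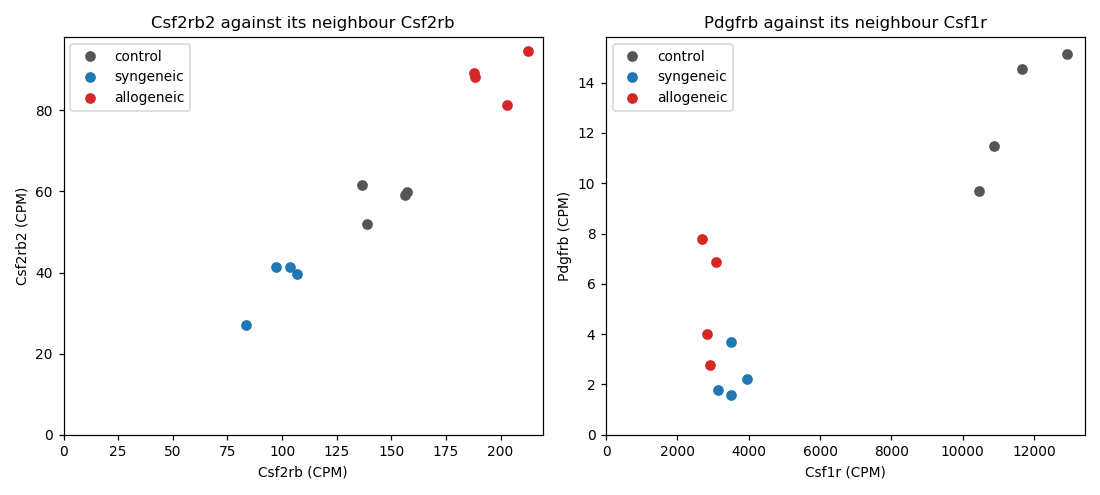
Left, Csf2rb2 against Csf2rb; right, Pdgfrb against Csf1r; all axes in CPM from 0, each point 1 library of the control (grey), syngeneic (blue) or allogeneic (red) group. Csf2rb and Csf2rb2 rise together from syngeneic through control to allogeneic libraries, while Pdgfrb is highest in the 4 control libraries, as Csf1r is.

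Csf3r was the second most abundant member per kilobase. It measured 590, 542, 678 and 540.1 CPM in control, 325, 344, 320 and 358 CPM in syngeneic, and 366, 395, 331 and 356 CPM in allogeneic libraries. The control libraries stood above all others, and the transplanted groups overlapped. Csf3r fell 1.75-fold in syngeneic against control mice (log2 fold change -0.80 ± 0.08, edgeR adjusted p = 1.27e-07) and 1.62-fold in allogeneic against control mice (-0.70 ± 0.08, edgeR adjusted p = 5.13e-07). Between allogeneic and syngeneic mice the difference was 0.11 ± 0.08 (edgeR adjusted p = 0.44), and with library totals it was -0.10. With the GC and length offset the falls shrank to -0.31 (edgeR adjusted p = 0.00122) and -0.16 (edgeR adjusted p = 0.0557), the latter not called. Neutrophil markers (11 genes, with the granule gene Mpo at 0 in every library) summed to 0.159 to 28.7 CPM in control, 0.646 to 8.34 CPM in syngeneic and 2.22 to 7.21 CPM in allogeneic libraries. In control 1 to 4, in the order of the Csf3r values above, these markers summed to 7.61, 0.159, 19.3 and 28.7 CPM. The 4 neutrophil markers that were tested, Ngp, Camp, S100a8 and S100a9, each averaged highest in control. Ngp averaged 7.01 CPM in control, from 0.03 to 14.5 CPM, and 0.25 and 0.17 CPM in syngeneic and allogeneic libraries. In allogeneic against control mice 0 rose and 1 fell, Ngp (edgeR adjusted p = 0.0411). Among all tested genes 28.2% rose and 29.1% fell there. In the other comparisons 0 of the 4 rose and 0 fell. The part of neutrophils in the Csf3r values was not tested. Lhfpl2 (r = 0.98), Ilvbl (0.98) and P2rx7 (0.979), an ATP-gated channel, followed Csf3r most closely.

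Flt3 showed the largest fold change of the 7 genes in each comparison. It measured 15.9, 18.2, 12.97 and 14.6 CPM in control, 1.16, 0.754, 2.03 and 0.657 CPM in syngeneic, and 2.21, 4.30, 3.23 and 2.12 CPM in allogeneic libraries. The control libraries lay far above the rest, and every allogeneic library was above every syngeneic one, if narrowly. Flt3 fell 13.4-fold in syngeneic against control mice (log2 fold change -3.75 ± 0.40, edgeR adjusted p = 2.83e-07) and 5.19-fold in allogeneic against control mice (-2.38 ± 0.37, edgeR adjusted p = 2.34e-05). In allogeneic against syngeneic mice it rose 2.59-fold (1.37 ± 0.37, edgeR adjusted p = 0.0142). That rise rests on 26 to 74 counts per syngeneic and 70 to 161 per allogeneic library, and it was not called with limma-voom (adjusted p = 0.0685), in a fit of these groups alone (0.155), or without syngeneic 4 (0.0508) or allogeneic 2 (0.0527). Dendritic cell markers (12 genes) summed to 119 to 146 CPM in control, 96.6 to 101 CPM in syngeneic and 80.9 to 86.0 CPM in allogeneic libraries, of which Wdfy4, Cd1d1 and Batf3 made up most. Clec9a, which defines cross-presenting dendritic cells, averaged 0.07, 0 and 0.42 CPM in the same order. It held 11, 0 and 56 counts, in 1, 0 and 2 libraries of the group, too few to be tested. Of the 8 tested dendritic cell markers 1 fell in syngeneic and 2 in allogeneic against control mice, and 1 in allogeneic against syngeneic mice. In each of these comparisons 0 rose. Among all tested genes 25.6%, 29.1% and 6.38% fell in the same order. The part of such cells in the Flt3 values was not tested.

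**Figure D3:**
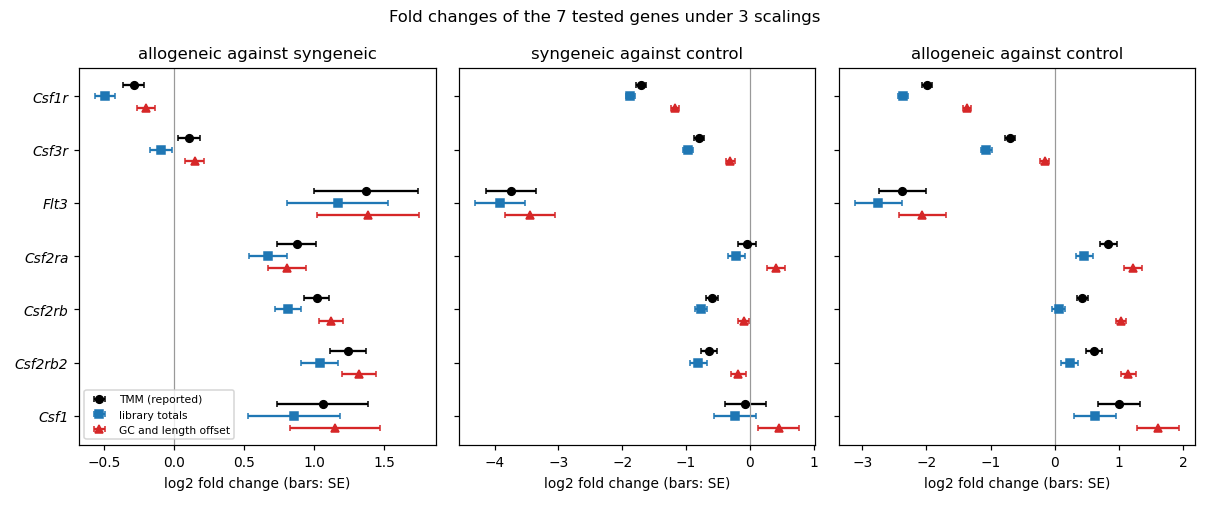
Log2 fold change (horizontal axes, bars show SE) of the 7 tested genes in the 3 comparisons, with TMM factors (black), library totals (blue) and the GC and length offset (red). Csf1r and Flt3 lie below 0 against control under all 3, while Csf2rb and Csf2rb2 lie near 0 for syngeneic against control with the offset and for allogeneic against control with library totals.

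Per kilobase of exon, which allows genes to be compared, the order in control was Csf1r (2352 ± 221 RPKM), Csf3r (168 ± 18.3), Csf2rb (28.2 ± 2.12), Csf2ra (15.6 ± 0.91), Csf2rb2 (12.3 ± 0.88), Flt3 (4.21 ± 0.60) and Csf1 (1.47 ± 0.31), and no neighbours in that order overlapped between libraries. In syngeneic libraries Csf2rb (18.7 ± 1.97 RPKM) and Csf2ra (15.1 ± 2.002) overlapped, and so did Csf1 (1.41 ± 0.65) and Flt3 (0.31 ± 0.17), which stood last. Allogeneic libraries had Csf1r at 589 ± 34.8, Csf3r at 103 ± 7.56, Csf2rb at 37.9 ± 2.32, Csf2ra at 27.8 ± 3.81, Csf2rb2 at 18.6 ± 1.16, Csf1 at 2.93 ± 0.26 and Flt3 at 0.81 ± 0.28 RPKM. Flt3 was thus above Csf1 in control libraries and below it in allogeneic ones, with no overlap in either group.

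**Figure D4:**
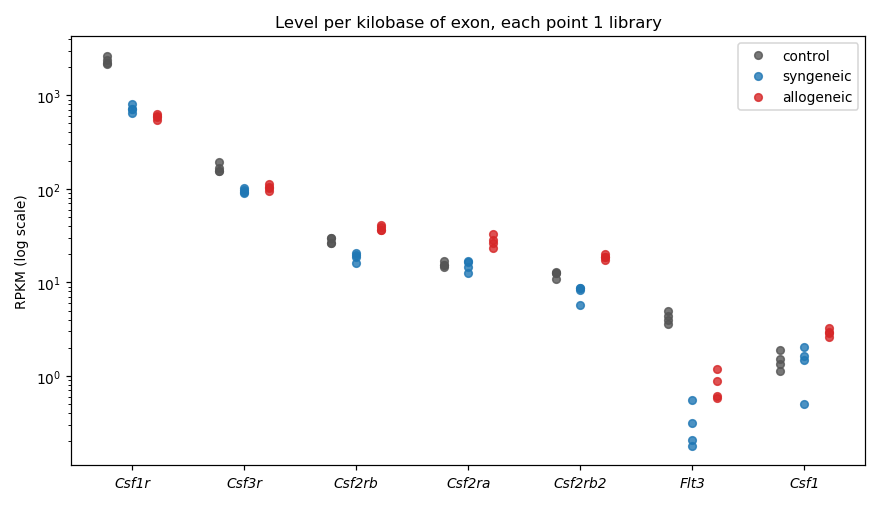
Level per kilobase of exon (RPKM, log axis) of the 7 tested genes, each point 1 library of the control (grey), syngeneic (blue) or allogeneic (red) group. Csf1r lies above all other genes in every library, from 549 to 2646 RPKM.

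Among 13 other ligand and receptor genes of these families, 5 had enough counts to be tested (Flt3l, Il3ra, Kitl, Pdgfrb and Ptprz1). Csf2, Csf3 and Il3, which encode GM-CSF, G-CSF and interleukin 3, were at 0 counts in all 12 libraries, and Il5 was at 1 count in all. T and NK cell markers (11 genes) summed to 1.39 to 2.53 CPM in control, 0.278 to 4.24 CPM in syngeneic and 2.83 to 4.16 CPM in allogeneic libraries. Of these markers 8, 7 and 2 were at 0 in the group. Flt3l, the FLT3 ligand gene, was found at 4.75 ± 0.75 CPM in control, 3.08 ± 1.64 in syngeneic and 5.09 ± 1.28 in allogeneic libraries, with no call in any comparison. Kitl, the ligand gene of the related receptor KIT, averaged 22.5, 29.1 and 27.6 CPM, also without a call, and Kit itself held 0, 3 and 67 counts per group. Il3ra, the interleukin 3 alpha chain, rose in allogeneic against control mice, from 0.29 ± 0.35 to 3.15 ± 1.65 CPM (log2 fold change 3.43 ± 0.96, edgeR adjusted p = 0.00497). Without control 1, the control library with the most Il3ra, that value was 4.77, and a rise in syngeneic against control mice was then called as well (3.31, edgeR adjusted p = 0.00922; 1.98 and 0.0771 with all libraries). The GC and length offset gave Il3ra 4.18 in allogeneic against control mice and called it in syngeneic against control mice too (2.67, edgeR adjusted p = 0.0227), while without syngeneic 2 the latter value was 1.12 and not called (0.344). Ptprz1, a phosphatase that also binds IL-34, held 0.05, 1.08 and 0.62 CPM, a call in syngeneic against control mice (4.49 ± 1.74, edgeR adjusted p = 0.0379) that was lost without control 1, 3 or 4 or syngeneic 2 or 3 (0.0684 to 0.108) and with the GC and length offset (0.055). Control 2 was the one control library with any counts of Ptprz1, and without it the control group was at 0. The fitted log2 fold changes were then 8.43 in syngeneic and 7.63 in allogeneic against control mice, sizes that depend on the prior count and are no bound, and the latter was called too (edgeR adjusted p = 0.0129; 0.0698 with control 2). Pdgfra, Sdc1 and Il5ra were not tested for want of counts.

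Pdgfrb, which encodes a receptor of the CSF1R family and lies next to Csf1r in RefSeq's mouse annotation (GRCm38.p6), also stood lower in transplanted mice. How reads were assigned between these neighbours is not given in the sources used here, and Pdgfrb held few counts beside Csf1r, so its values are uncertain. It measured 14.5, 9.69, 15.1 and 11.5 CPM in control, 1.78, 1.59, 3.70 and 2.22 CPM in syngeneic, and 7.78, 2.78, 6.86 and 4.003 CPM in allogeneic libraries. Pdgfrb fell in syngeneic (log2 fold change -2.45 ± 0.38, edgeR adjusted p = 2.45e-05) and in allogeneic (-1.25 ± 0.36, edgeR adjusted p = 0.00643) against control mice, the latter not called with the GC and length offset (-0.57, edgeR adjusted p = 0.195). A rise in allogeneic against syngeneic mice (1.21 ± 0.37, edgeR adjusted p = 0.0287) was lost without syngeneic 1, 2 or 4 or allogeneic 1 or 3 (edgeR adjusted p = 0.0684 to 0.0993) and with library totals (0.052). In brain Pdgfrb is known as a gene of mural cells, and 10 mural markers, a list made after these values were seen, summed to 1.31 to 3.02 CPM in control, 0.557 to 3.26 CPM in syngeneic and 1.73 to 5.23 CPM in allogeneic libraries, with 3, 4 and 2 of them at 0 in the group, among them Vtn in control. Their part in the Pdgfrb values was not tested. Per 1000 counts of Csf1r there were 0.925 to 1.25 counts of Pdgfrb in control, 0.454 to 1.05 in syngeneic and 0.952 to 2.90 in allogeneic libraries.

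Of 25 tested genes of the signalling chain below CSF1R 6 rose and 11 fell in syngeneic against control mice, 9 rose and 12 fell in allogeneic against control mice, and 4 rose and 3 fell in allogeneic against syngeneic mice; with library totals the counts were 2 and 11, 4 and 14, and 2 and 10, and with the GC and length offset 9 and 9, 8 and 8, and 4 and 3. Among all tested genes 26.4% rose and 25.6% fell, 28.2% rose and 29.1% fell, and 10.1% rose and 6.38% fell in these comparisons. The list's median log2 fold changes were 0.10, -0.29 and -0.07. Pik3cd, a catalytic PI3-kinase subunit, fell from 228 CPM in control to 67.3 in syngeneic and 55.9 in allogeneic libraries (-1.76 ± 0.15 and -2.03 ± 0.15, or -1.11 and -1.23 with the offset). Plcg2, a phospholipase, fell from 154 to 74.2 and 70.6 CPM (-1.06 ± 0.10 and -1.13 ± 0.10, the latter -0.54 with the offset), and Inpp5d, a lipid phosphatase that counters PI3-kinase, from 812 to 489 and 375 CPM (-0.73 ± 0.08 and -1.12 ± 0.08). Tyrobp, the adaptor that links CSF1R to SYK, rose from 889 to 1673 and 2468 CPM. Its rise in allogeneic against syngeneic mice (0.56 ± 0.07, edgeR adjusted p = 3.87e-06) was not called with the offset (0.11, edgeR adjusted p = 0.192). Akt2 fell in allogeneic against syngeneic mice (-0.59 ± 0.16, edgeR adjusted p = 0.0176), a call lost without syngeneic 1 or allogeneic 2 or 4 (edgeR adjusted p = 0.0506 to 0.0879) and with the offset (0.0583).

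JAK-STAT genes that act below the GM-CSF, interleukin 3 and G-CSF receptors were all tested, 18 in number. In allogeneic against syngeneic mice 5 rose and 1 fell (median 0.14), in syngeneic against control 3 rose and 5 fell (-0.22), and in allogeneic against control 5 rose and 6 fell (0.06); with library totals the counts were 4 and 4, 2 and 7, and 3 and 10, and with the GC and length offset 6 and 1, 4 and 4, and 8 and 2. Among all tested genes 16.5%, 52.1% and 57.3% were called in these comparisons. Socs2, a feedback inhibitor induced through STAT5, rose from 1.57 CPM in syngeneic to 23.4 CPM in allogeneic libraries (log2 fold change 3.90 ± 0.40, edgeR adjusted p = 8.81e-07). Socs3, the feedback inhibitor of the G-CSF receptor, rose from 8.71 to 26.5 CPM (1.61 ± 0.25, edgeR adjusted p = 9.26e-05). Stat5b, which these receptors activate, stood at 41.4, 22.3 and 14.2 CPM in control, syngeneic and allogeneic libraries and fell in each comparison; the fall from syngeneic to allogeneic (-0.65 ± 0.18, edgeR adjusted p = 0.0176) was lost without syngeneic 4 (edgeR adjusted p = 0.0706) or allogeneic 1 (0.0587). Tyk2, a Janus kinase, averaged 71.2, 35.3 and 50.7 CPM, a fall in syngeneic against control mice (-1.01 ± 0.14, or -0.39 with the offset). Its rise in allogeneic against syngeneic mice (0.52 ± 0.14) was lost without allogeneic 2 (edgeR adjusted p = 0.0543) and with library totals (0.116), and its fall in allogeneic against control mice (-0.49 ± 0.14) became 0.29 with the offset, not called (0.0626). Stat3 fell in syngeneic (-0.58 ± 0.10) and allogeneic (-0.40 ± 0.10) against control mice, neither called with the offset (-0.24 and 0.08). Pim2, a survival kinase, fell from 11.7 to 5.32 and 3.75 CPM.

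A list of transcription factors was drawn up for the Csf1r locus, and their binding there was not measured. Of the 17 tested, with TMM factors, 8 rose and 3 fell in syngeneic against control mice. In allogeneic against control mice 8 rose and 1 fell, and in allogeneic against syngeneic mice 3 rose and 2 fell. The shares of all tested genes called were 52.1%, 57.3% and 16.5% in the same order. With library totals, which moved the medians over all genes to the values given above, the counts were 5 and 4, 3 and 6, and 2 and 5. With the GC and length offset they were 5 and 0, 9 and 1, and 5 and 2. The list's median log2 fold changes were 0.30, 0.43 and -0.04. Spi1, which encodes PU.1, rose from 29.0 CPM in control to 60.7 in syngeneic and 54.3 in allogeneic libraries (1.06 ± 0.13 and 0.91 ± 0.13), and Runx1 from 49.1 to 78.0 and 84.0 CPM (0.67 ± 0.10 and 0.77 ± 0.10). Both thus moved opposite to Csf1r itself. Maf averaged 594, 1035 and 702 CPM, a rise in syngeneic against control (0.80 ± 0.09) and a fall in allogeneic against syngeneic mice (-0.56 ± 0.09). Bhlhe41 rose in both transplanted groups (0.38 ± 0.07 and 0.49 ± 0.07), though with library totals the latter was 0.12 and not called. Cebpa, a myeloid factor, fell from 83.7 to 47.6 and 38.8 CPM (-0.81 ± 0.16 and -1.11 ± 0.16), values that were -0.16 (not called) and -0.36 with the offset. In allogeneic against syngeneic mice Bhlhe40, induced by GM-CSF in macrophages, rose from 0.75 to 10.1 CPM (3.74 ± 0.73, edgeR adjusted p = 0.00118), and Cebpb from 3.86 to 8.14 CPM (1.08 ± 0.30, edgeR adjusted p = 0.0167), the latter not called without syngeneic 1 (edgeR adjusted p = 0.0536). Fli1 fell there (-0.28 ± 0.08, edgeR adjusted p = 0.0257), a call lost without syngeneic 1, 2 or 4 or allogeneic 2 or 3 (edgeR adjusted p = 0.0518 to 0.094).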

How the data were processed

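RNA-seq was done on 12 libraries of sorted microglia, 1 per mouse. Trimmomatic 0.36, STAR 2.5.2b and the build mm9 are named, per the submitters' processing notes. The authors deposited raw counts per gene symbol; which tool counted, on which annotation and strand, is not given in the sources used here. All CPM values and log2 fold changes come from edgeR 4.0.16 in R 4.3.3, with TMM factors and filterByExpr (minimum count 10), which kept 12695 of 18018 genes with any count. A robust quasi-likelihood fit of group means over all 12 libraries gave the 3 comparisons, with Benjamini-Hochberg adjustment over all tested genes. RPKM used exon lengths of GENCODE M21, another build, so no coordinates were joined to counts. The procedure was tested on simulated counts. Alternatives were RLE factors, library totals, no filter, 1 CPM in 4 libraries, DESeq2 1.42.0, limma-voom (limma 3.58.1), only the compared groups, a block on replicate number, leaving out 1 library at a time, Csf2rb summed with Csf2rb2, and loess offsets (span 0.3) for GC content and length, known for 12230 of the tested genes. Members and lists were chosen with earlier results of these data known. Named are all members, their partner ligands and receptors, up to 4 called genes per pathway list and comparison by smallest p, and the 5 (Csf1r) or 3 (members of at least 10 CPM) genes with the highest Pearson r of log2 CPM (prior count 2), predicted genes left out; some genes that the rule names are not reported here. For Csf2ra only 1 of these 3 is named, the other 2 being at or near 0 in 8 libraries. Marker genes were named after their values were seen. Library totals ran from 32652208 to 46126118 counts. SD is over the 4 mice of a group. The SE of a log2 fold change is that of the contrast between groups, derived from the quasi-likelihood test in the fit of all 12 libraries.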

Additional observations from a re-analysis of the deposited data

Results flagged for a closer look

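In 22 groups of 4 libraries with any spread (8 genes, 3 groups), 2 held a library far from the other 3. For normally distributed values chance flags about 1 in 20 groups. Il34 stood at 0.84 CPM in syngeneic 2 and at 0 in the other 3 syngeneic libraries. With 3 libraries at 0 any count in the remaining library is flagged, so that rate does not apply to Il34. Csf2rb2 stood at 27.0 CPM in syngeneic 1, below the nearest syngeneic library at 39.6 CPM. Syngeneic 1 was also the lowest syngeneic library for Csf2rb (83.6 CPM) and Csf1 (2.36 CPM).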

How the results depend on the processing

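Of the alternatives run on the counts of called genes and called members, 1 moved a count by over 1.5 times: with library totals 4 of 7 members were called in allogeneic against control mice, in place of 7. Among the members, signs turned for 3 differences that were not called: Csf3r in allogeneic against syngeneic mice with library totals (-0.10), Csf2ra in syngeneic against control mice without syngeneic 2 (0.038; range over libraries left out -0.09 to 0.038) and with the GC and length offset (0.41), and Csf1 in the same comparison without control 3 or syngeneic 1 (0.07 and 0.22; range over libraries left out -0.30 to 0.22) and with the offset (0.455). With each library left out, 4 to 6, 5 and 7 members were called for allogeneic against syngeneic mice, for syngeneic mice against control and for allogeneic mice against control, in that order. Replicate numbers did not pair the libraries (correlations of deviations -0.015 to 0.032, 0 of 12 pairs over 0.1; 2 of 12 libraries correlated best with their own number); with the replicate number as a block 2002, 6507 and 7200 genes were called in place of 2098, 6610 and 7273, and 6, 5 and 7 members, and the block changed no member's call; it did bring Ptprz1 past the threshold in allogeneic against control mice (edgeR adjusted p = 0.0462). The cause of the changes under library totals and the GC and length offset was not tested. Low counts limit Flt3 in transplanted mice, Csf1, Il3ra and Ptprz1. Csf2rb and Csf2rb2 cannot be separated with certainty.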
